A study of Mus musculus with 15 samples.

Results

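The 51 histone genes read by the mouse kidney arrays of this series are described here, across embryonic day 16 (E16d), postnatal day 1 (PN1d) and postnatal day 7 (PN7d). They are the genes with a probe whose symbol starts with H1f, H2ac, H2bc, H2af, H2az, H3c, H3f or H4c, or with the older stems Hist1h, Hist2h or Hist3h, and they make up 51 of the 15967 genes named on the array. The kidneys came from BALB/c mice with no treatment, and their total RNA was read on Illumina MouseRef-8 bead arrays, 5 for each age. No source used here says whether a sample held 1 animal or several, and p-values measure only how far these samples lie apart. In whole tissue, fewer cells of a type and less RNA per cell cannot be told apart.

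Histones are the proteins around which DNA is wound. H2A, H2B, H3 and H4 form the core of the nucleosome, and H1 binds the DNA where it enters and leaves that core. Most histone protein is made while a cell copies its DNA, from clustered genes whose short mRNAs have no intron and end in a stem-loop in place of a poly(A) tail. These replication-dependent genes stand against variant genes, such as H3f3b, which encodes the replacement histone H3.3 and is read in dividing and resting cells from an mRNA with a poly(A) tail. In the kidney, nephrons are still being formed at birth in the mouse, by progenitor cells that divide under the capsule.

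Of the 51 genes, 45 were replication-dependent, 5 belong to the testis and oocyte (H1f6, H1f7, H1f8, H2ac1 and H2bc1) and 1 was a variant, H3f3b. The variants H2az1, H2az2, H3f3a, H1f0 and H1f10 are not analysed here, so the contrast between replication-dependent and variant genes rests on H3f3b. A short list of other histone genes, listed as variants by name, is given below. The labelling kit named in the labels (Ambion MessageAmp) is of a type that starts copying from poly(A) tails, which most replication-dependent histone mRNAs lack, so that the arrays read whichever part of these mRNAs was copied. Values are log2 intensities, and the brightest probe stands for each gene. A gene was tested where its mean at 1 age or more lay above 6.22, the median of all values, which holds for 38 members: 36 replication-dependent genes, H2bc1 and H3f3b. The other 13 members (H1f1, H1f3, H1f4, H1f5, H1f6, H1f7, H1f8, H2ac1, H2ac6, H2bc3, H3c7, H3c8 and H4c3) lay between 5.76 and 6.22 on the 15 arrays and were not tested. A gene that passed only through the age where it is bright had to differ in part. This holds for H2bc6, H4c14 and H2bc1, whose means lay above 6.22 at E16d alone. The counts of replication-dependent genes lower than at E16d include H2bc6 and H4c14, for which a lower mean was in part fixed by the filter. Counts below are over tested genes and not over all members.

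Expression of replication-dependent histone genes was lower at PN7d than at E16d, and by the pooled median most of the fall came between PN1d and PN7d. This did not hold for the H4 genes, with medians of -0.43 for PN1d against E16d and -0.24 for PN7d against PN1d. Of 36 replication-dependent genes tested, 29 were lower and 3 were higher at PN7d than at E16d, with a median log2 fold change of -0.64, while 32.2% and 32.3% of all 9531 genes tested were lower and higher in that comparison. At PN1d, 15 were lower and 7 higher than at E16d with a median of -0.17, beside 24.9% and 21.4% of all genes. Between PN7d and PN1d, 29 were lower and 0 were higher, with a median of -0.60, beside 21.2% and 24.1% of all genes. The medians over all genes lay between -0.02 and 0.01 in these comparisons. Genes were called with limma over all 15 arrays at a Benjamini-Hochberg adjusted p under 0.05, and comparisons that share an age share its arrays.

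**Figure D1:**
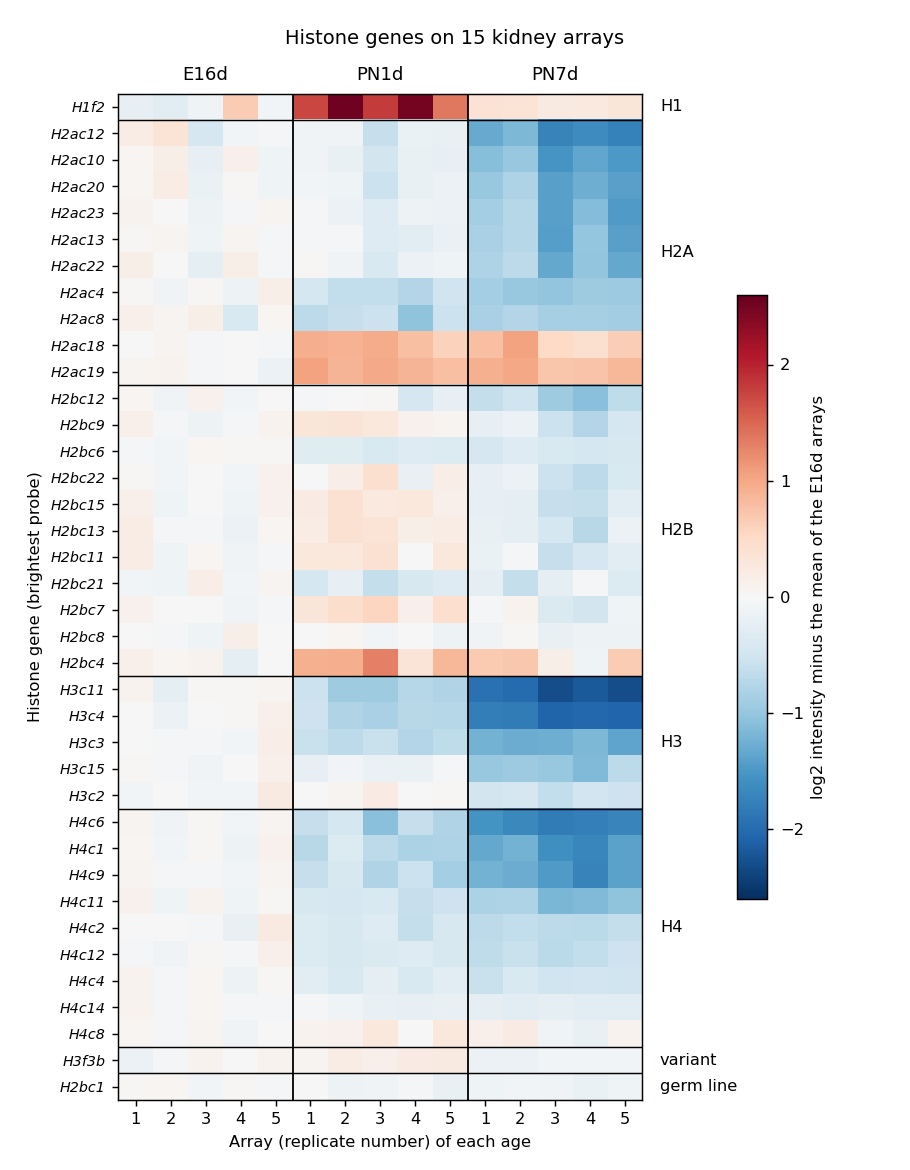
Log2 intensity of the 38 tested histone genes (rows, by family) on the 15 arrays (columns, by age), as the difference from the mean of the E16d arrays of the same gene. Blue cells at PN7d mark the genes that were lower, with H3c11 at -2.15 on average, while H2ac18 and H2ac19 stay red at both postnatal ages and H1f2 is red at PN1d.

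Promoter windows were read for 47 of the 51 members from RefSeq sequence (GRCm38.p6), 250 bases before to 50 bases after the annotated start. Among the 41 replication-dependent genes with a window, CCAAT on either strand was found in 35 (85.4%, against 37.4% of all 32851 windows) and TATAAA in 26 (63.4%, against 13.6%). The octamer ATTTGCAT was in 9 (22.0%, against 1.74%), 5 of them H2A and 4 H2B genes. AAACACA, a motif known from H1 promoters, was in 4 of 5 H1 windows and in 5 of the 41 (12.2%, against 7.18%). GGGCGG was in 18 (43.9%, against 35.7%), among them 8 of 9 H4 windows. The E2F motifs TTTCCCGC and TTTGGCGC were in 1 and 0 of the 41 windows, against 1.07% and 0.514% of all windows. The 7 motifs were searched on both strands, a match is a description of the letters, and the windows of neighbouring genes can overlap.

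The stretches of 6 genes are printed, all running 5′ to 3′ towards the start of the named gene, with these motifs in capitals on either strand. H3c11 and H4c6 stand for the H3 and the H4 genes, each with the largest decrease at PN7d in its family on the brightest probe. H1f2 stands for the gene that peaked at PN1d, and H2ac18 and H2ac19 for the pair that stayed higher after birth. H2ac12 stands for the H2A genes called lower at PN7d and not at PN1d. The stretches end at the base before the start. They lie at chr13:21783398-21783647 on the minus strand for H3c11, chr13:23551669-23551918 on the minus strand for H4c6, chr13:23738557-23738806 on the plus strand for H1f2, chr3:96245247-96245496 on the plus strand for H2ac18, chr3:96240375-96240624 on the minus strand for H2ac19 and chr13:22035644-22035820 on the minus strand for H2ac12 (GRCm38.p6). None of the 6 stretches overlaps a gene annotated there, and that of H2ac12 is the whole space between its start and that of H2bc12, which is read the other way.
H3c11: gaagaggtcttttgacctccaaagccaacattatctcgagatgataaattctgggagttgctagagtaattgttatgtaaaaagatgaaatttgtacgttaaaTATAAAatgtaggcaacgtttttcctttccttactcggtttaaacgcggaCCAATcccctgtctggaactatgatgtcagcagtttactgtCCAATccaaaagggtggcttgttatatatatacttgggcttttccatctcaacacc
H4c6: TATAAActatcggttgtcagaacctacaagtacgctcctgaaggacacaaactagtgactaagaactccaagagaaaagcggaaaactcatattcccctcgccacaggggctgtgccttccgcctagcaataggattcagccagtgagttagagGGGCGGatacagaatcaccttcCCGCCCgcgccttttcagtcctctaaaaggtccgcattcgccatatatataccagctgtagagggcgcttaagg
H1f2: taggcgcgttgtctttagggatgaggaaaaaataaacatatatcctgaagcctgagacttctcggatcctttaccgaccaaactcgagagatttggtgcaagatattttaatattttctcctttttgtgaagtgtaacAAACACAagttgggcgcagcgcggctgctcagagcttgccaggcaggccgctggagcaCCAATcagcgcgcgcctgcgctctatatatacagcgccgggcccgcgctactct
H2ac18: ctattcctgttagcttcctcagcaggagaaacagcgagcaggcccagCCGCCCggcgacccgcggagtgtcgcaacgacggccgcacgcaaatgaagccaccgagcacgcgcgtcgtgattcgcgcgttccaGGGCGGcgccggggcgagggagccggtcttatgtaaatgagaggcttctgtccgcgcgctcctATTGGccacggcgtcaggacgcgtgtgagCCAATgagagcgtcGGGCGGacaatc
H2ac19: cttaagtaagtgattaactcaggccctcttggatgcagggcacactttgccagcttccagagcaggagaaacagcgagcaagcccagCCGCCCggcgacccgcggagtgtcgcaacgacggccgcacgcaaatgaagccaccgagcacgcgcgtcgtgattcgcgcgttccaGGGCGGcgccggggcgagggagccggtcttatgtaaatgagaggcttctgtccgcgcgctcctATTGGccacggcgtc
H2ac12: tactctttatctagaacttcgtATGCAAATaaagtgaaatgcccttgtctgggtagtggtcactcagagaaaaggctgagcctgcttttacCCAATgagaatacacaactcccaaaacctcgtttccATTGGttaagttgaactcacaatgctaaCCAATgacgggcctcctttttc
In H3c11 the CCAAT matches start 97 and 56 bases before the start, and in H1f2 the AAACACA match starts 112 and the CCAAT match 54 bases before it. The H2ac12 stretch holds the octamer in reverse and 3 CCAAT matches. The windows of H2ac18 and H2ac19 share an identical run of 219 bases, which starts 209 bases before the start of H2ac18 and 169 bases before that of H2ac19. All tested replication-dependent genes lie on chromosome 13 (30 genes) or chromosome 3 (6 genes: H2ac18, H2ac19, H2ac20, H2bc21, H3c15 and H4c14).

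H3 genes were lower at PN7d, and on the brightest probes H3c11 and H3c4 had the largest decreases against E16d among the histone genes tested. Of 5 tested, 3 were lower at PN1d and 5 at PN7d than at E16d, and 5 were lower at PN7d than at PN1d. Of all genes, 24.9%, 32.2% and 21.2% were lower in these comparisons. H3c11 had 9.31, 8.99, 9.26, 9.26 and 9.30 at E16d, then 8.66, 8.31, 8.30, 8.48 and 8.44 at PN1d, and 7.28, 7.23, 6.91, 7.04 and 6.92 at PN7d. The 3 ages did not overlap. Its log2 fold change was -2.15 (SE 0.089, adjusted p = 6.91e-12, limma) for PN7d against E16d, which leaves 22.5% of the E16d intensity, and -0.79 for PN1d against E16d.
H3c4 had 9.25, 9.10, 9.25, 9.28 and 9.39 at E16d, 8.71, 8.47, 8.42, 8.53 and 8.52 at PN1d, and 7.46, 7.44, 7.17, 7.21 and 7.19 at PN7d. Again no array of one age reached another age, and the fold change was -1.96 for PN7d against E16d (SE 0.074, adjusted p = 2.47e-12). At PN7d, H3c3 was under the overall median of 6.22 on the 5 arrays, so that its decrease against E16d was at least 2.14-fold (adjusted p = 1.76e-11). H3c15 differed from E16d by -0.13 at PN1d (adjusted p = 0.145) and fell by 0.95 at PN7d. H3 genes encode the same few proteins with near-identical coding sequence, and the probe sequences were not used here, so a probe may read more than the gene it is named for.

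Of the H4 genes, 8 of 9 fell at both steps, and for none did a difference between the steps pass the test given below. Of 9 tested, 8 were lower at PN1d than at E16d, 8 at PN7d than at E16d and 8 at PN7d than at PN1d, and none was higher. Of all genes, 24.9%, 32.2% and 21.2% were lower in these comparisons. The 8 include H4c14, whose lower mean against E16d was in part fixed by the filter. The H4 gene not called was H4c8, with means of 6.91 at E16d, 7.06 at PN1d and 6.94 at PN7d and adjusted p between 0.125 and 0.75. H4c6 had 9.04, 8.88, 9.01, 8.89 and 9.04 at E16d, 8.37, 8.52, 7.88, 8.37 and 8.20 at PN1d, and 7.42, 7.30, 7.15, 7.19 and 7.26 at PN7d. Each age stood clear of the next. Its fold change was -1.71 (SE 0.094, adjusted p = 1.5e-10) for PN7d against E16d. H4c1 and H4c9 were at 36.6% and 37.1% of their E16d intensity at PN7d. H4c11 had means of 7.82 at E16d, 7.34 at PN1d and 6.82 at PN7d. H4c2, H4c12 and H4c4 fell by 0.67, 0.62 and 0.50 to PN7d means of 6.26, 6.41 and 6.29, near the overall median of 6.22. H4c14 averaged 6.16 at PN1d and was under that median on every PN7d array, so its decrease against E16d was at least 1.06-fold. Fold changes of such dim genes come out too small, so the steps of these genes cannot be compared closely. The call of H4c14 for PN7d against PN1d (-0.13) was lost without any 1 PN7d array and without PN1d replicate 1 or 2 (adjusted p 0.0533 to 0.109).

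The 10 tested H2A genes split into 3 patterns. The H2ac12, H2ac10, H2ac20, H2ac23, H2ac13 and H2ac22 probes did not pass the test at PN1d, where their fold changes against E16d lay between -0.23 and -0.15, and all 6 fell in the first week. H2ac12 had 12.33, 12.49, 11.70, 12.07 and 12.10 at E16d, 12.05, 12.05, 11.53, 11.97 and 11.95 at PN1d, and 10.83, 10.96, 10.40, 10.49 and 10.38 at PN7d. The E16d and PN1d arrays overlapped, and every PN7d array lay below both. The fold change for PN7d against PN1d was -1.30 (SE 0.147, adjusted p = 3.26e-06), and for the other 5 it lay between -1.07 and -0.89. These probes average 12.1 to 13.5 at E16d on a scale whose highest value is 13.80, and with the mean of each age removed their arrays moved together, with a median Pearson correlation of 0.89 over 15 pairs of probes and 15 arrays. Whether they share targets was not tested.
In a second pattern H2ac4 and H2ac8 were lower at PN1d than at E16d, with -0.60 and -0.69, and were under the overall median at PN7d. Against E16d their decrease at PN7d was at least 1.62-fold and at least 1.65-fold.
In the third pattern H2ac18 and H2ac19 rose at PN1d and stayed higher. H2ac19 had 8.76, 8.78, 8.66, 8.68 and 8.53 at E16d, 9.72, 9.57, 9.68, 9.56 and 9.46 at PN1d, and 9.61, 9.69, 9.40, 9.43 and 9.55 at PN7d. Every postnatal array lay above every E16d array, and the 2 postnatal ages overlapped. The fold change was 0.92 (SE 0.068, adjusted p = 2.99e-08) for PN1d against E16d, 0.85 (adjusted p = 1.33e-08) for PN7d against E16d and -0.06 (adjusted p = 0.481) for PN7d against PN1d. H2ac18 had 6.69, 6.76, 6.66, 6.67 and 6.65 at E16d, 7.63, 7.59, 7.66, 7.48 and 7.28 at PN1d, and 7.48, 7.73, 7.20, 7.11 and 7.33 at PN7d. It rose by 0.84 and 0.68 against E16d, at PN1d and PN7d. These genes are copies in a duplicated stretch, their promoter windows share the identical run given above, and the probes cannot be taken as separate measures of each gene.

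H2B genes moved both ways at PN1d. Of 11 tested, 4 were higher and 2 lower than at E16d (36.4% and 18.2%, beside 21.4% and 24.9% of all genes), with a median of 0.22. At PN7d, 8 were lower than at PN1d, beside 21.2% of all genes. H2bc4 had 10.12, 10.04, 10.07, 9.73 and 9.97 at E16d, 10.92, 10.92, 11.29, 10.33 and 10.85 at PN1d, and 10.66, 10.68, 10.14, 9.87 and 10.64 at PN7d. The PN1d arrays stood above the E16d arrays, and PN7d overlapped both. The fold change was 0.88 (SE 0.17, adjusted p = 0.000458) for PN1d against E16d. At PN7d it was 0.41 against E16d (adjusted p = 0.0424) and -0.46 against PN1d (adjusted p = 0.0355), with few arrays deciding these calls. The call against E16d was lost without E16d replicate 2, 3, 4 or 5, PN1d replicate 1 or PN7d replicate 1, 2 or 5 (0.34 to 0.44, adjusted p 0.0503 to 0.106). The call against PN1d was lost without PN1d replicate 1, 2, 3 or 5 or PN7d replicate 3 or 4 (-0.47 to -0.33, adjusted p 0.0539 to 0.0993).
H2bc7 had 8.97, 8.86, 8.84, 8.77 and 8.82 at E16d, 9.17, 9.30, 9.40, 8.98 and 9.28 at PN1d, and 8.82, 8.94, 8.47, 8.38 and 8.75 at PN7d. It rose by 0.38 at PN1d (adjusted p = 0.00477), every PN1d array lying above the E16d arrays. With its other probe, the one of higher variance, that call was lost (0.21, adjusted p = 0.0705). On the brightest probe it fell by 0.56 at PN7d against PN1d. H2bc15 had 8.84, 8.61, 8.70, 8.60 and 8.82 at E16d, 8.93, 9.10, 8.96, 8.99 and 8.85 at PN1d, and 8.51, 8.48, 8.12, 8.10 and 8.44 at PN7d. Its rise at PN1d was small, 0.25 (SE 0.085, adjusted p = 0.0216), and was lost without E16d replicate 2 or 4 or PN1d replicate 2 (0.22 to 0.23, adjusted p 0.055 to 0.0564).
H2bc13 had 8.36, 8.11, 8.13, 8.005 and 8.21 at E16d, 8.36, 8.56, 8.53, 8.31 and 8.36 at PN1d, and 7.96, 7.93, 7.70, 7.44 and 8.003 at PN7d. E16d replicate 1 reached into the PN1d arrays, and the PN7d arrays lay just below the E16d arrays. The call at PN1d (0.26, adjusted p = 0.0417) was lost without E16d replicate 2, 3, 4 or 5 or PN1d replicate 1, 2 or 3 (0.22 to 0.27, adjusted p 0.0502 to 0.105). At PN7d against E16d, H2bc12 fell by 0.76, and H2bc9, H2bc22, H2bc15, H2bc13 and H2bc11 fell by 0.31 to 0.42. H2bc6, tested through its E16d level alone, was under the overall median on every PN1d and PN7d array, and its decrease against E16d was at least 1.13-fold at each of these ages. H2bc8 passed no test (adjusted p = 0.128 for PN7d against E16d).

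H1f2, the only tested gene of the linker histone family, had a peak at PN1d. It had 9.37, 9.31, 9.46, 10.23 and 9.50 at E16d, 11.32, 12.10, 11.40, 12.06 and 10.94 at PN1d, and 9.94, 9.93, 9.81, 9.83 and 9.88 at PN7d. Every PN1d array lay above every array of the other ages, and E16d and PN7d overlapped through E16d replicate 4. PN1d reached 397% of the E16d intensity (log2 fold change 1.99, SE 0.202, adjusted p = 7.4e-07), and PN7d against PN1d gave -1.68 (adjusted p = 5.67e-06). PN7d against E16d gave 0.30 (adjusted p = 0.199). Over all alternatives tried, each array left out included, the rise at PN1d stayed between 1.85 and 2.15.
Liver markers were also higher at PN1d, on replicates 1 to 4. The summed intensity of 5 liver markers was 2002, 3916, 1112, 3072 and 715.7 on PN1d replicates 1 to 5, against 528.1 to 768.6 at E16d and 577 to 805.4 at PN7d. Within PN1d, both H1f2 and this sum were highest on replicate 2 and lowest on replicate 5. On replicate 5 the sum lay inside the E16d range, while H1f2 was 10.94, above every E16d array. On E16d replicate 4, where H1f2 was 10.23, the sum was 562.6. Alb and Fgb, defining liver genes, were not above the overall median on the 15 arrays. Of 3 tested liver markers, 2 (Ttr and Apoa1) were higher at PN1d than at E16d, beside 21.4% of all genes. The part of liver RNA in the H1f2 value was not tested.

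**Figure D2:**
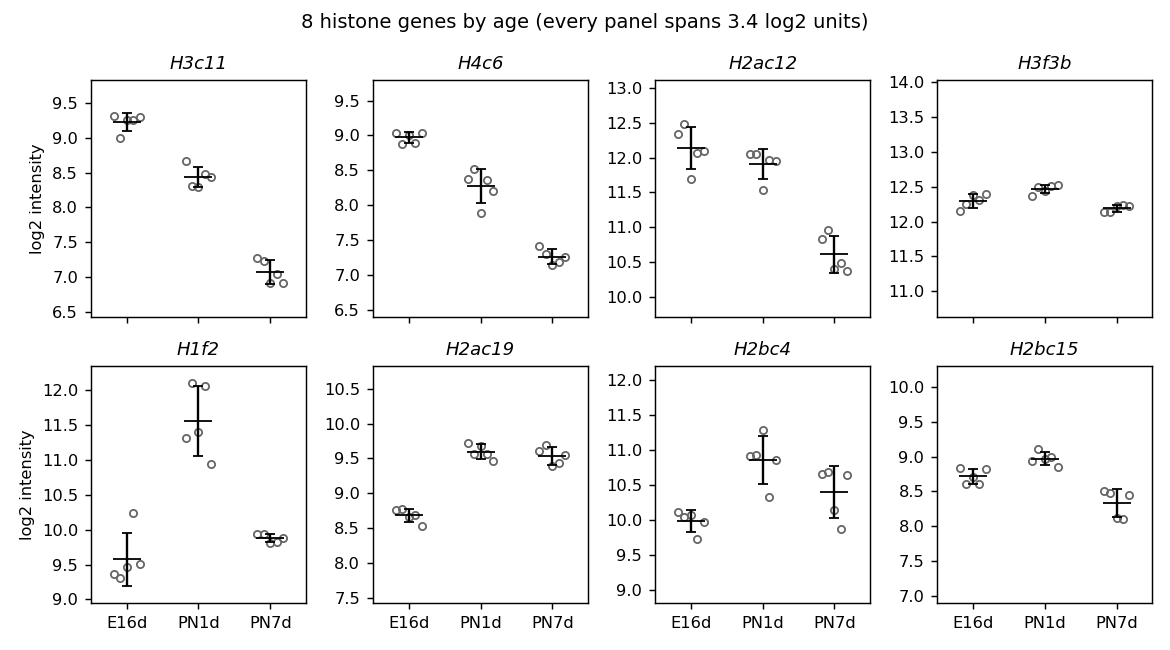
Log2 intensity of 8 histone genes by age: circles are the 5 arrays of an age, and the bar and whiskers are their mean and SD. Every panel spans 3.4 log2 units, so that slopes can be compared: H3c11 and H4c6 go down at each step, H2ac12 mostly after PN1d (means of 12.14, 11.91 and 10.61), H1f2 peaks at PN1d at a mean of 11.56, H2ac19 stays up, and H3f3b moves little.

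H3f3b, which encodes H3.3, changed little beside these genes. It had 12.15, 12.26, 12.38, 12.30 and 12.39 at E16d, 12.37, 12.50, 12.44, 12.51 and 12.52 at PN1d, and 12.14, 12.14, 12.22, 12.23 and 12.22 at PN7d. E16d overlapped both later ages, while every PN7d array lay below every PN1d array. PN1d was higher by 0.17 (SE 0.052, adjusted p = 0.0132) than E16d, PN7d was lower by 0.28 than PN1d (adjusted p = 0.000442), and PN7d against E16d gave -0.11 (adjusted p = 0.0858). Of 5 other histone genes listed as variants by name and tested, 4 were lower and 1 higher at PN7d than at E16d, beside 32.2% and 32.3% of all genes. Whether the listed genes are read outside DNA copying, like H3f3b, was not tested, so they cannot stand for its class. Cenpa, the H3 of centromeres, fell by 1.70, and H2ax, which is phosphorylated at DNA breaks, by 1.58. H2bu2 gave -0.69 and Macroh2a1 fell by 0.63, while H2aj rose by 0.32. H2bc1, a germ line gene, lay at 6.25 at E16d and under the overall median at PN7d (at least 1.02-fold lower, adjusted p = 0.0372). That call was lost without E16d replicate 1, 2 or 4 or PN7d replicate 1, 3, 4 or 5 (adjusted p 0.0514 to 0.0876).

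The change over the first week was tested against the change across birth in the same fit, as PN7d minus PN1d less PN1d minus E16d. The steps differ in length, so the test compares changes and not rates. Of the 36 replication-dependent genes, 20 had a more negative first week and 3 a less negative one, with a median difference of -0.60, beside 12.5% and 14.9% of all genes and a median of 0.03. The variant H3f3b also had a more negative first week in this test (-0.45, adjusted p = 0.00161, limma), so this trait was not particular to the replication-dependent genes. Among the replication-dependent genes, H1f2 was lowest at -3.67 (SE 0.349, adjusted p = 1.37e-06), H2bc4 was at -1.34 and H2ac12 at -1.07. In H2A 8 of 10, in H2B 7 of 11 and in H3 4 of 5 genes had the more negative first week. Among these, H2ac18 and H2ac19 rose across birth and were not called lower in the first week. Their PN7d against PN1d values were -0.15 and -0.06 (adjusted p = 0.213 and 0.481, limma). Of the H4 genes, 0 of 9 were called in either direction, with values between -0.30 and 0.19. The 3 genes with a less negative first week were H2ac8, H2bc6 and H2bc21. H2bc6, which passed the filter through E16d alone, was under the overall median on the 5 PN1d arrays. Little further fall could then show in its first week, so its call was in part fixed beforehand. H2ac8 was under that median on the 5 PN7d arrays, which limits the fall that could show in the same way. Of these genes, H2ac8 lost its call without E16d replicate 1, 2 or 3 or PN1d replicate 1 or 4 (0.36 to 0.54) and H2bc21 without PN1d replicate 1, 3 or 4 (0.42 to 0.52). H2ac22 lost its call without PN1d replicate 1 (-0.66, adjusted p = 0.0522) and H2bc22 without PN1d replicate 3 (-0.47, adjusted p = 0.0687).

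**Figure D3:**
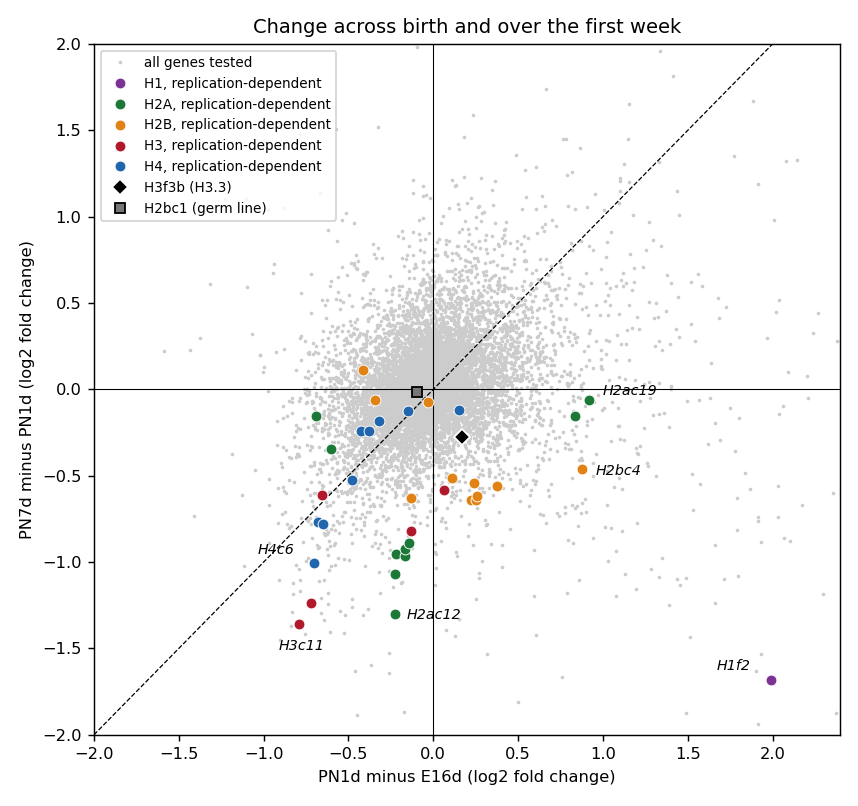
Log2 fold change of PN1d against E16d (horizontal axis) and of PN7d against PN1d (vertical axis) for every gene tested (grey) and for the histone genes (coloured by family). The dashed line marks equal changes, H4 genes lie close to it, most H2A and H2B genes lie below it, and 30 genes of the 9531 fall outside the axes.

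Probes of 1 gene did not always move alike. Of 8 members with several probes, 6 had 2 probes past the filter. H3c2 had 11.05, 11.10, 11.05, 11.05 and 11.35 at E16d, 11.12, 11.19, 11.32, 11.13 and 11.15 at PN1d, and 10.64, 10.68, 10.47, 10.63 and 10.59 at PN7d on its brightest probe. Its other probe had 9.33, 9.09, 9.28, 9.33 and 9.33 at E16d, 8.64, 8.47, 8.36, 8.46 and 8.44 at PN1d, and 7.19, 7.15, 6.86, 6.97 and 6.81 at PN7d. PN7d minus E16d was thus -0.52 on the first and -2.28 on the second, and PN1d minus E16d was 0.07 and -0.80.
H2bc21 had 8.08, 8.04, 8.32, 8.07 and 8.22 at E16d, 7.68, 7.92, 7.52, 7.72 and 7.80 at PN1d, and 7.89, 7.53, 7.89, 8.10 and 7.80 at PN7d on its brightest probe. The other probe had 8.34, 8.07, 8.26, 8.20 and 8.33 at E16d, 7.71, 7.54, 7.43, 7.59 and 7.58 at PN1d, and 6.71, 6.76, 6.64, 6.54 and 6.64 at PN7d. PN7d minus PN1d was 0.11 on the brightest probe and -0.91 on the other. For H3c11, H4c9, H2bc4 and H2bc7 both probes ran the same way in each of these comparisons, with -2.15 and -1.78, -1.43 and -1.54, 0.41 and 0.15, and -0.18 and -0.46 for PN7d minus E16d. The second probe of H3c15 and the 3 probes of H3c7 did not pass the filter.

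**Figure D4:**
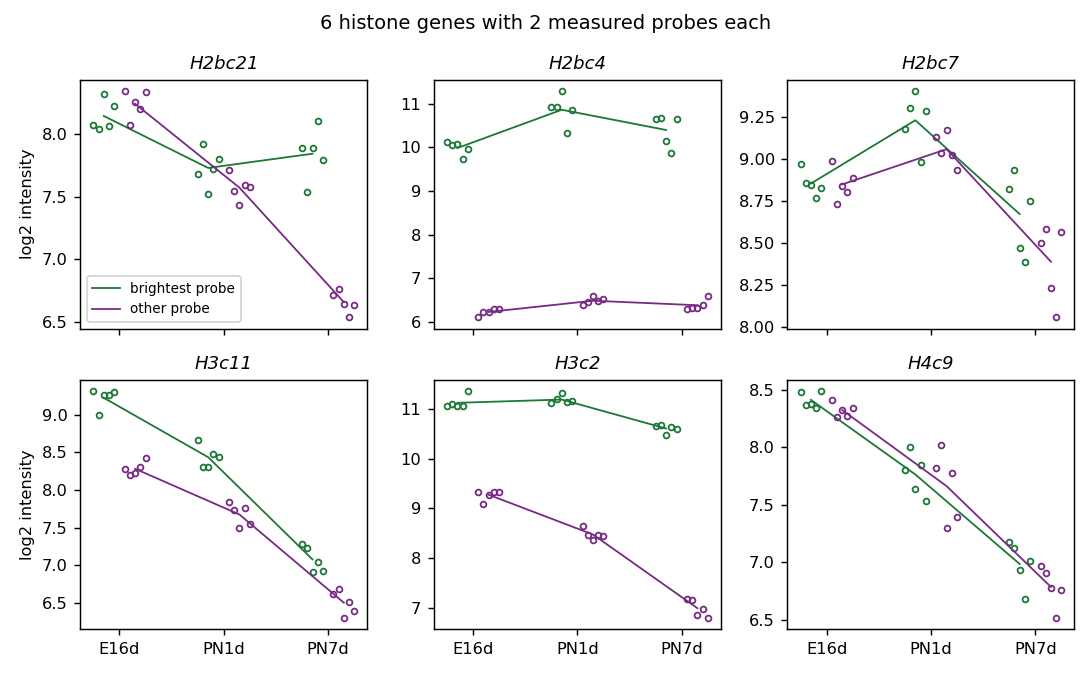
Log2 intensity on the 5 arrays of each age for the 6 histone genes with 2 probes past the filter, brightest probe in green and the other in purple, with lines through the means (vertical axes differ between panels). The probes of H3c2 and H2bc21 part at PN7d, with -0.52 and -2.28 and with -0.30 and -1.59 for PN7d minus E16d, while those of H4c9 run together.

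There were 4 pairs of an H2A and an H2B gene tested on both sides whose starts lie close together on opposite strands. The starts of H2ac12 and H2bc12 are 178 bases apart, and PN7d differed from E16d by -1.53 and -0.76. H2ac13 and H2bc13 (229 bases) differed by -1.09 and -0.36, and H2ac22 and H2bc22 (240 bases) by -1.03 and -0.40. In these 3 pairs the H2A value is the more negative. H2ac8 and H2bc8 have starts 180 bases apart, and PN7d was lower than E16d by at least 1.65-fold for H2ac8 and differed by -0.10 for H2bc8, which did not pass the test.

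Genes around histone synthesis were lower as well, and the lists were chosen with earlier results of these data known. Of all 9531 genes tested, 24.9% were lower at PN1d and 32.2% at PN7d than at E16d. Of 36 tested genes of DNA replication in S phase, 36 were lower at PN7d than at E16d, with a median of -0.96, and 34 at PN1d, with a median of -0.56. Mcm6 and Mcm5, parts of the helicase that opens DNA, fell by 2.18 and 1.63 at PN7d. Mcm6 rests in part on PN7d replicate 4, at 6.50, where the other PN7d arrays had 9.68 to 11.02. Of 21 tested genes of mitosis, 21 were lower at PN7d (median -1.59), among them Plk1 and Cdk1, kinases that drive entry into mitosis, with -2.21 and -1.95. The median of replication-dependent histone genes at PN1d, -0.17, lay nearer to 0 than the medians of both lists (-0.56 and -0.67). That median pools families that differed, with PN1d medians of -0.66 for H3, -0.43 for H4, -0.19 for H2A and 0.22 for H2B.
Of 20 histone chaperones and import factors, 15 were lower and 0 higher at PN7d than at E16d, with a median of -0.45, beside 32.2% and 32.3% of all genes. Nasp, which binds free H3 and H4, fell by 1.58 and Nap1l1, which binds H2A and H2B, by 1.47. Hira, which deposits H3.3, fell by 0.13, and Daxx, another H3.3 chaperone, gave -0.03 (adjusted p = 0.768). Of 9 tested genes of histone mRNA processing and transcription, 8 were lower at PN1d and 7 at PN7d than at E16d. At PN7d against PN1d, 1 was lower and 1 higher, smaller shares than the 21.2% and 24.1% of all genes. Cpsf2 and Cstf2, of the machinery that cuts mRNA ends, fell by 0.48 and 0.47 at PN7d. Slbp, which binds the histone stem-loop, and Npat, which activates histone genes, did not pass the filter.

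Kidney markers rose with age. Of 6 tested, 5 were higher and 1 lower at PN7d than at E16d, beside 32.3% and 32.2% of all genes. Umod was higher by 3.55 and Slc34a1 by 1.63 on the log2 scale, while Pax8 gave -0.48. The sum of 7 markers ran from 21730 to 23910 at PN7d against 8623 to 10580 at E16d. Fat cell markers came above the overall median at PN7d only, with Ucp1 higher by 4.68 and Cox8b by 2.92 than at E16d. The summed intensity of Ucp1, Cidea, Cox8b and Adipoq was 618.3 to 7129 at PN7d, against 239 to 253.4 on the E16d and PN1d arrays, where none of the 4 rose above the overall median. With the level of these 4 genes on each array as a covariate, 26 replication-dependent histone genes were lower and 2 higher at PN7d than at E16d, and 25 were lower at PN7d than at PN1d. Calls became fewer over all genes too. With this covariate 26.6% of all genes were lower and 26.8% higher at PN7d than at E16d. At PN7d against PN1d, 14.6% of all genes were lower, where 21.2% had been. The histone calls lost for PN7d against E16d were those of H2bc11, H2bc13 and H2bc22 (lower) and H2bc4 (higher), beside H2bc1, and for PN7d against PN1d those of H2bc4, H4c2, H4c4 and H4c14 (lower). Red cell precursor markers summed to 13740 to 15860 at E16d, 11910 to 13980 at PN1d and 11820 to 14770 at PN7d, and Alas2, which makes heme in red cell precursors, fell by 1.37 at PN7d against E16d while Klf1 rose by 0.21.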

How the data were processed

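RNA of 15 kidneys or kidney pools from BALB/c mice (5 samples each at E16d, PN1d and PN7d, by the labels) was labelled with biotin and hybridized to Illumina MouseRef-8 V1.1 arrays. The authors scanned the arrays, processed them in BeadStudio and quantile-normalized them. The deposited values are on the log2 scale with no centring by gene and with no sign of background subtraction, which makes fold changes of dim genes too small. A second table has 30 columns of signals and detection p-values under names that match no sample, and was not used. Gene names are those of the platform annotation, which gives 20984 of 24613 probes 1 symbol. Probes whose mean at 1 age or more lay above the median of all values (6.22) were kept, the brightest of a gene was used, and 9531 genes were fitted with limma 3.58.1 in R 4.3.3 (3 ages, empirical Bayes, Benjamini-Hochberg, adjusted p under 0.05, two-sided). The test was first tested on simulated data. The median SD between the 5 arrays on the log2 scale was 0.0816 (E16d), 0.0993 (PN1d) and 0.122 (PN7d), and the number of arrays limits the precision. Where no array of the dimmer age rose above that median, the change is a bound, the brighter mean against the median. Members, gene lists and tests were chosen with earlier results of these data known.

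Values on every array are given by rule for the 4 replication-dependent genes with the largest decrease at PN7d, the variant, each member called higher in a comparison, and genes whose probes differ in sign. From other lists the 2 largest changes in each direction past the test at PN7d are named, and Macroh2a1, Hira, Daxx, Slbp, Npat, Ttr, Apoa1, Alb and Fgb were added for their roles. H2bu2 was added to name every tested gene of its list. The class of a gene follows its symbol. Replicate numbers did not pair the samples: same-numbered samples of different ages correlated between -0.23 and 0.21 (15 pairs). Alternatives were the filter, the choice of probe, a trended variance, a fit of 2 ages alone, the methods' t-test, the replicate number as a block, normexp background correction (offset 16), cyclic loess, an adipocyte marker covariate and leaving out each array. Promoters were read with Python 3.11.15, and figures were drawn with matplotlib 3.10.9.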

Additional observations from a re-analysis of the deposited data

Results flagged for a closer look

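In groups of 5 arrays, the highest or lowest array was compared with the nearest of the others, as its gap over the range of the group, with 0.71 as the limit. Of 114 groups looked at (38 histone genes at 3 ages), 7 stood out, where chance gives about 1 in 20. H1f2 was 10.23 on E16d replicate 4 against 9.50 on the next array (0.79). H2ac12 was 11.53 on PN1d replicate 3 against 11.95 (0.805), and H2ac20 was 12.76 on the same array against 13.12 (0.751). H2ac8 was 6.55 on E16d replicate 4 against 6.99 (0.816) and 5.89 on PN1d replicate 4 against 6.26 (0.739). H3c11 was 8.99 on E16d replicate 2 against 9.26 (0.841), and H3c2 was 11.35 on E16d replicate 5 against 11.10 (0.803).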

How the results depend on the processing

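Of 110 calls of histone genes over the 4 comparisons, 100 were kept with each array left out in turn and 93 in every alternative. With a filter at the upper quartile of all values, 25 replication-dependent genes were tested, and 7 were lower at PN1d than at E16d where 15 had been (28.0%, beside 29.3% of all genes under that filter), and 1 had a less negative first week where 3 had been, fewer genes being tested. With adipocyte markers as a covariate that last count was also 1, and 14 of the 110 calls were lost. The first week of H2bc21 turned from less to more negative, -0.24 (adjusted p = 0.116), when its probe of highest variance was used. With 1 array left out, replication-dependent genes lower and higher numbered 15 to 15 and 5 to 8 at PN1d against E16d, 29 to 31 and 2 to 3 at PN7d against E16d, 27 to 30 and 0 to 0 at PN7d against PN1d, and 19 to 21 and 1 to 3 for the difference of steps, where 1 came without PN1d replicate 4. Of all genes in these fits, 22.8% to 25.5% were lower and 19.6% to 21.8% higher at PN1d against E16d. At PN7d against E16d the shares were 31% to 32.3% and 30.7% to 32.5%. Against PN1d they were 19.2% to 21.1% and 21.9% to 24.4%, and for the difference of steps 10.1% to 13.1% and 11.8% to 15.9%. With the replicate number as a replicate block, 18 were lower and 9 higher at PN1d, 29 and 3 at PN7d against E16d, 29 and 0 at PN7d against PN1d, and 21 and 3 for the difference of steps, and the block lost 1 call, H2bc1 at PN7d. The numbers do not pair the samples (4 of 15 correlated best with their own number). Cyclic loess and normexp lost 0 of 110 calls, the adjusted methods' t-test lost 2 of 86 and no filter lost 4 of 110. Bead counts were not used, and dim probes such as H2ac8, H2bc1 and H4c14 limit their calls.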
